A study of Mus musculus with 12 samples.

Results

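Libraries titled C2C12 Crebl2 Rapa 1-3 were compared with those titled C2C12 Luc EtOH 1-3, which made 6 of the 12 libraries of the series, chosen by their titles. C2C12 is a mouse myoblast line that proliferates in serum and can fuse into contractile myotubes when serum is withdrawn. The control cells had carried an siRNA against Renilla luciferase (Luc), a gene that mice lack, for 3 days, and then stood in ethanol, the solvent of the drug, for 12 hours. The doubly treated cells had carried an siRNA against Crebl2 for the same 3 days, followed by 12 hours in 20 nM rapamycin. The 6 remaining libraries carried 1 perturbation each, namely the Crebl2 siRNA with ethanol (siRNA alone) or the Luc siRNA with rapamycin (rapamycin alone). All 4 groups held 3 libraries of total RNA from this 1 line in growth medium, and the same single siRNA against Crebl2, labelled siRNA 1, was used throughout, so an effect of that sequence on other genes cannot be told apart from the loss of Crebl2. Whether the 3 libraries of a group are separate cultures is not stated in the labels. The p-values therefore reflect spread among libraries that may be technical.

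Crebl2 is a small bZIP protein related to the CREB family of transcription factors, which bind DNA as pairs through a leucine zipper. Rapamycin binds the protein FKBP12 and inhibits mTOR complex 1, the kinase complex that couples amino acids and growth factors to ribosome production, nucleotide and lipid synthesis and cell growth. In myoblasts the MyoD family of E-box binding factors, with myogenin (Myog) acting at the onset of differentiation, turns on the genes of the contractile apparatus. mTOR is also needed for myoblasts to differentiate.

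Library totals ranged from 33404087 to 42891015 counts. Counts had been deposited per transcript, and reads that fall where listed transcripts overlap are missing from them. The percentage of a gene's exonic bases that belong to a single listed transcript of its own strand is called its countable share. It is given where it is below 60%. Transcripts of the other strand were left out, so the share is too high for genes they overlap if the counting ignored strand. Levels are given as CPM, counts scaled to library size with TMM factors, which are not divided by gene length and therefore compare libraries, not genes. Myoblast markers were present in all libraries, with a summed level of 5170 to 5540 CPM of the library total in the controls and 4210 to 4300 CPM in the doubly treated cells (8 of 8 markers above 0). The 12 neural markers summed to 316 to 331 CPM in the controls and to 825 to 937 CPM in the doubly treated cells, carried by Stmn2, Nefl, Nefm and Tubb3, while Rbfox3, Snap25 and Syt1 were at 0 in every library. The 8 epithelial markers summed to 37.7 to 42.0 CPM and 70.3 to 79.4 CPM, nearly all of it Krt14, with Esrp1 at 0 in every library. Of the 9 immune and blood markers, 5 were at 0 throughout, Ptprc among them, and the 6 endothelial markers summed to at most 1.06 CPM. The part of these marker genes in the results was not tested. In bulk RNA, fewer cells of a type and less RNA per cell cannot be told apart.

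Crebl2 itself stayed below control when rapamycin was added to its siRNA. It stood at 23.8, 25.3 and 26.2 CPM in the 3 control libraries and at 10.7, 8.97 and 9.49 CPM in the doubly treated ones, so the groups did not overlap. The mean was 61.3% lower (log2 fold change −1.37, SE 0.11, edgeR adjusted p = 4.68e-08). The siRNA alone gave 4.87, 7.41 and 6.02 CPM, 75.7% below control, and rapamycin alone gave 39.96, 36.4 and 36.3 CPM, above every control library (log2 fold change 0.58, SE 0.10, edgeR adjusted p = 0.000191). The 2 perturbations therefore moved the targeted gene in opposite directions, and the siRNA's fall was the larger. The interaction, which is the net log2 fold change minus both single ones, was 0.10 (SE 0.15, edgeR adjusted p = 0.841). For the net comparison, a 2-sided exact permutation test gave p = 0.1, which is the lowest value reachable with 3 libraries in each group. The gene is located at chr6:134830154-134858931 on the plus strand (GRCm38).

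The first question was how far the doubly treated state lay from the control. Of 13247 tested genes, 2606 rose (19.7%) and 3203 fell (24.2%), which is 43.9% in all at an adjusted p below 0.05. At least 2-fold changes were seen in 361 of the genes that rose and 670 of those that fell. The 3 doubly treated libraries did not overlap the 3 controls for 2555 of the rises and 3121 of the falls. Called genes tend to separate in this way, so these counts are not further support for the calls. The share of all tested genes that separate is not given here. On their own, the siRNA raised 21.4% and lowered 17% of the tested genes, and rapamycin raised 19.5% and lowered 21.6%. The net and both single comparisons use the same 3 control libraries, so their changes are set side by side here and are not independent of each other.

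Net changes came by several routes. Among the 2606 genes that rose, 399 rose under both single perturbations, 910 under rapamycin only, 515 under the siRNA only, and 422 under neither. For 343 the single effects were called in opposite directions and the net followed the rise, and 17 had a called single effect only against the net direction. Among the 3203 genes that fell, 371 fell under both, 802 under rapamycin only, 613 under the siRNA only and 491 under neither, while 904 had opposite single effects and 22 a called single effect only against the net direction. Opposite single effects were thus more frequent behind net falls (904) than behind net rises (343).

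Both single effects were called in the same direction for 785 genes and in opposite directions for 2165. The shared rises were 407 genes, 14.4% of the siRNA's rises and 15.8% of rapamycin's, and the shared falls were 378 genes, 16.8% and 13.2% of the respective falls. Genes raised by the siRNA and lowered by rapamycin numbered 1381 (48.7% of the siRNA's rises and 48.3% of rapamycin's falls). The reverse held for 784 genes (34.9% of the siRNA's falls and 30.4% of rapamycin's rises). A gene was counted as added up where both single effects and the net were called in one direction and the net was larger than either, which held for 338 genes upward (2.55% of those tested) and 317 downward (2.39%). It was counted as cancelled where the single effects were called in opposite directions, the net was not called and the 95% interval of the net lay within 1.5-fold of no change. This held for 501 genes raised by the siRNA and lowered by rapamycin (3.78%) and for 336 with the reverse pattern (2.54%). These counts follow from the calls and carry no test of their own.

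**Figure D1:**
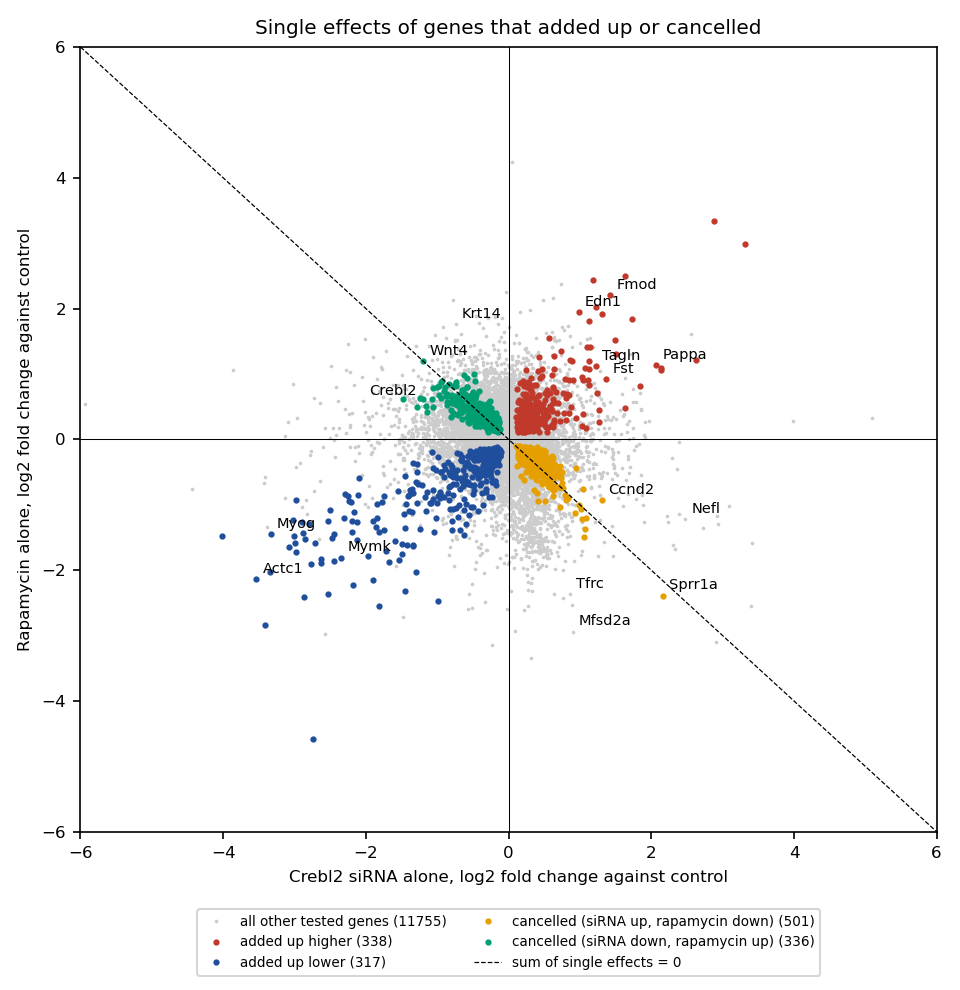
Log2 fold change by the Crebl2 siRNA alone (x axis) and by rapamycin alone (y axis), each against the control, for the 13247 tested genes. Coloured points are the 338 and 317 genes that added up, in the upper right and lower left, and the 501 and 336 genes that cancelled, which lie along the dashed line where the single effects sum to 0.

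In the median, the genes that added up higher had log2 fold changes of 0.31 under the siRNA, 0.38 under rapamycin and 0.72 under both, and 92 of the 338 were at least 2-fold higher. The medians of the genes that added up lower were −0.57, −0.54 and −1.06, and 174 of the 317 were at least 2-fold lower. In the cancelled genes the medians were 0.33, −0.29 and −0.03 for those raised by the siRNA and −0.38, 0.36 and 0.02 for those lowered by it. Cp, the copper-binding ferroxidase ceruloplasmin, lay just outside the cancelled class, with a net change of −0.31 and an interval from −0.59 to −0.04. The other genes with opposite single effects kept a net change toward rapamycin (733 down and 233 up) or toward the siRNA (110 up and 171 down), and the remaining 37 raised and 44 lowered by the siRNA were undecided.

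Secreted growth regulators held several of the largest net rises among coding genes averaging at least 5 CPM. Pappa, a metalloprotease that cuts IGF-binding proteins and so frees IGF, stood at 2.66, 2.52 and 2.39 CPM in the controls and at 33.8, 36.5 and 35.5 CPM in the doubly treated cells. Every doubly treated library exceeded every other library of the series, since the siRNA alone gave 9.18 to 12.5 CPM and rapamycin alone 4.89 to 6.14 CPM. The net rise was 13.9-fold (log2 fold change 3.80, SE 0.12, edgeR adjusted p = 4.1e-12), beside 4.19-fold for the siRNA and 2.2-fold for rapamycin. Its paralog Pappa2 rose 5.62-fold net and 3.23-fold with the siRNA, while its change of 0.27 with rapamycin alone was not called (edgeR adjusted p = 0.248). Edn1, the precursor of the peptide endothelin-1, went from 4.35, 3.81 and 4.29 CPM to 38.4, 35.8 and 38.8 CPM, a 9.08-fold rise (3.18, SE 0.09, edgeR adjusted p = 2.63e-12), with 1.98-fold under the siRNA and 3.86-fold under rapamycin. Fst, the activin and myostatin antagonist follistatin, rose 4.82-fold, from 8.56 to 9.86 CPM up to 42.3 to 46.7 CPM, with 2.58-fold and 1.9-fold single rises. For Pappa, Edn1 and Fst the interaction was not called (edgeR adjusted p of 0.0931, 0.394 and 0.961). The list of growth factors and their receptors, binding proteins and modulators had 31 of 36 members tested, of which 17 rose and 5 fell under both. Over all tested genes 19.7% rose and 24.2% fell. The list's net median was 0.43, against −0.03 over all tested genes.

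Matrix and contractile genes formed a further group of rises. Fmod, the collagen-binding proteoglycan fibromodulin, stood at 65.4, 62.4 and 72.4 CPM in the controls, 161 to 211 CPM with the siRNA, 279 to 324 CPM with rapamycin and 456, 415 and 452 CPM with both. The 4 groups did not overlap, and the net rise was 6.61-fold (2.73, SE 0.10, edgeR adjusted p = 1.74e-11). It was smaller than the single effects combined, with an interaction of −0.91 (SE 0.13, edgeR adjusted p = 0.00274). Smoc2, a secreted calcium-binding matrix protein, rose 5.34-fold and also had a negative interaction (−0.52, SE 0.12, edgeR adjusted p = 0.0458). Of 45 extracellular matrix genes, 38 were tested, 21 rose, 8 fell and 7 added up higher, where 19.7% of all tested genes rose, 24.2% fell and 2.55% added up higher. The falls were thus near the share of all genes. Col6a1, a chain of collagen VI, fell 2.05-fold, from between 1688 and 1718 CPM to between 822 and 848 CPM, although rapamycin alone raised it slightly (0.13).

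Tagln, an actin-binding protein of smooth muscle, had control values of 101, 88.8 and 100.1 CPM and doubly treated values of 595, 582 and 649 CPM. Its single effects were nearly equal, 2.33-fold and 2.17-fold, and its net rise was 6.3-fold (2.66, SE 0.06, edgeR adjusted p = 2.98e-13). Acta2, the smooth muscle alpha-actin, rose 2.17-fold, and Cnn2, a calponin, rose 1.84-fold. Of 20 listed SRF and YAP targets of this contractile kind, 16 were tested, 14 rose and none fell, against 19.7% rises among all tested genes. Of these 14, 3 added up higher. The actins Actc1 and Acta1, which fell 21.0-fold and 10.2-fold, are not on this list. Ptprn, a membrane protein of secretory granules, rose 4.62-fold from 3.28 to 4.04 CPM up to 14.3 to 20.7 CPM. The siRNA alone had reached 12.2 to 14.7 CPM, so its range overlapped the doubly treated one.

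**Figure D2:**
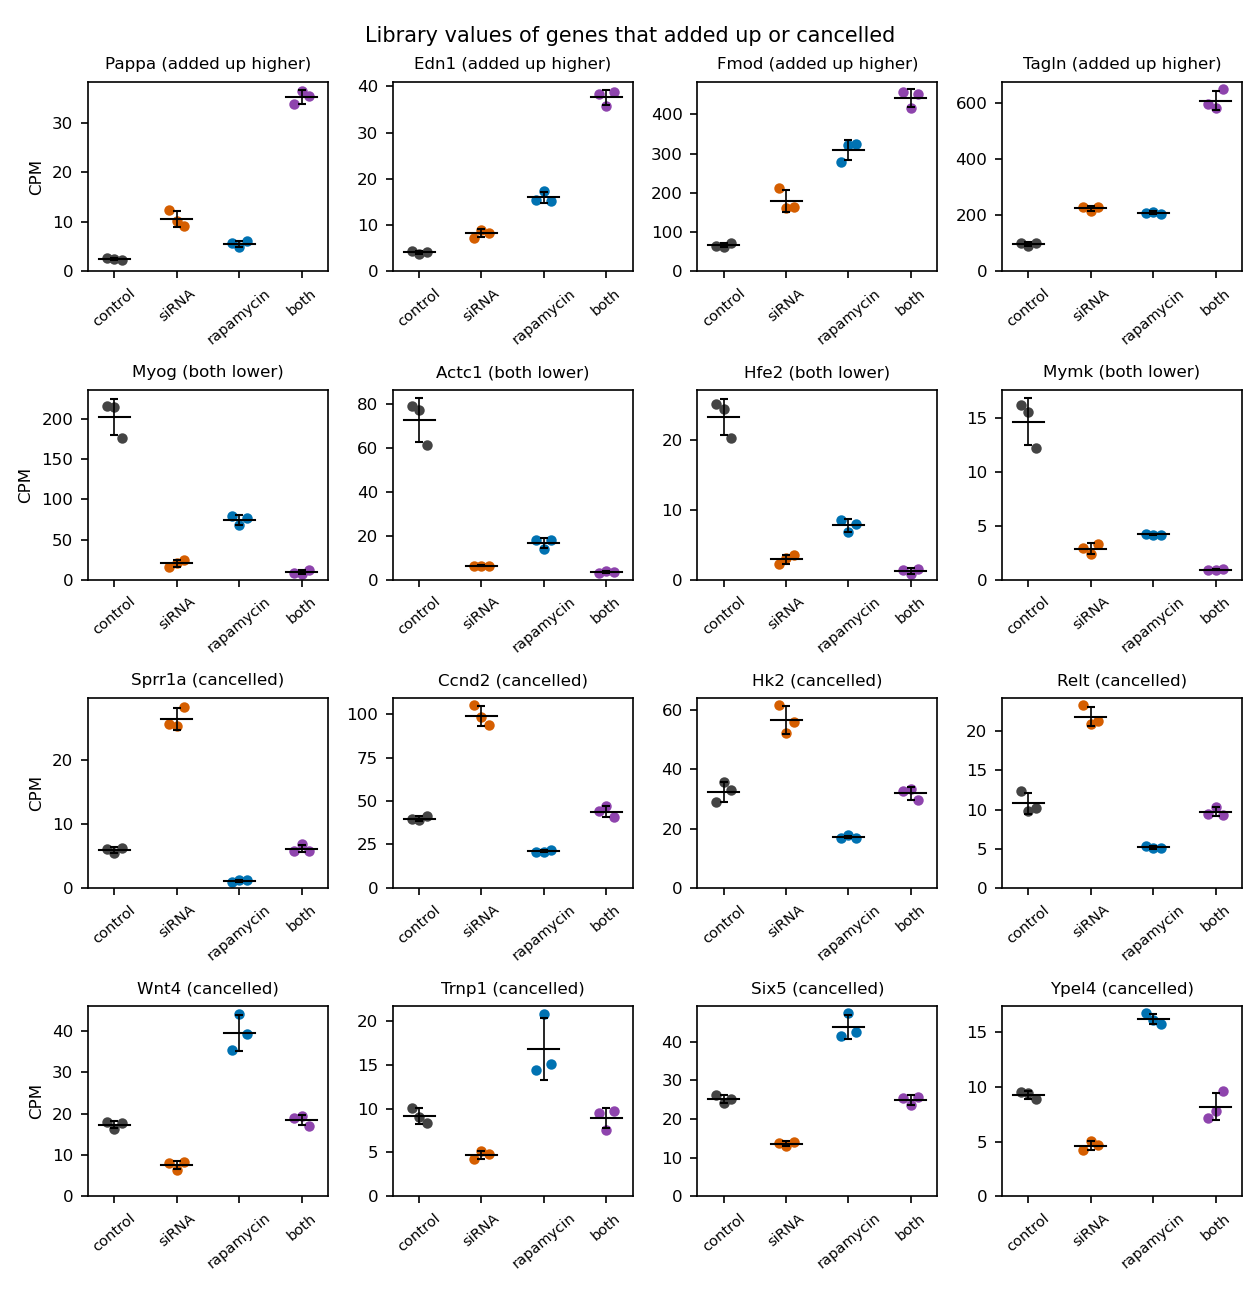
Levels in CPM (y axes, linear and starting at 0) of 16 genes in every library of the 4 groups (x axis), with the mean as a line and the SD of 3 libraries as a bar. In the upper 2 rows the doubly treated libraries lie beyond both single treatments for Pappa, Edn1, Fmod, Tagln, Myog, Actc1, Hfe2 and Mymk, and in the lower 2 rows they return to the control level between 2 opposite single effects.

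Genes of muscle differentiation led the net falls among coding genes averaging at least 5 CPM. Myog stood at 217, 215 and 177 CPM in the controls and at 8.87, 6.53 and 11.5 CPM in the doubly treated cells, 22.7-fold lower (−4.50, SE 0.17, adjusted p = 2.58e-11 in edgeR). The siRNA alone gave 15.9 to 24.3 CPM and rapamycin alone 67.7 to 79.6 CPM, so the 4 groups did not overlap. Actc1, the cardiac alpha-actin that young skeletal muscle also makes, went from 79.2, 77.5 and 61.3 CPM to 2.92, 3.86 and 3.62 CPM. This was 21.0-fold lower (−4.39, SE 0.13, adjusted p = 3.39e-12 in edgeR). Its skeletal relative Acta1 went from 322, 304 and 236 CPM to 25.8, 26.6 and 31.9 CPM, which was 10.2-fold lower (−3.36, SE 0.12, adjusted p = 1.48e-11 in edgeR). Control replicate 3 was the lowest of the 3 controls for Myog, Actc1 and Acta1, but it still lay far above every treated library.

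Myog, Actc1 and Acta1 are shown with the 250 bases before their RefSeq start sites (GRCm38.p6), because they fell under both perturbations and carry motifs that textbook muscle regulators bind. Of the 134 genes chosen for naming, 98 had such a window. Capitals mark E-boxes (CANNTG) in Myog and the CArG box, the site of serum response factor, in both actins, searched on both strands. The Myog window is chr1:134289754-134290003 on the plus strand, with E-boxes beginning 138 and 12 bases before the start. The actin windows are on the minus strand, chr2:114052876-114053125 for Actc1 with a CArG box 47 bases before the start and chr8:123894776-123895025 for Acta1 with one 73 bases before it.
Myog: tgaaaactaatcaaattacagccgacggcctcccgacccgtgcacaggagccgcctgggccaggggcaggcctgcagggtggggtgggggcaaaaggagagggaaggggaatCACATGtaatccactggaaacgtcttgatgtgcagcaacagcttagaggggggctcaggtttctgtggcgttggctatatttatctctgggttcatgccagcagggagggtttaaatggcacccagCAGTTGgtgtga
Actc1: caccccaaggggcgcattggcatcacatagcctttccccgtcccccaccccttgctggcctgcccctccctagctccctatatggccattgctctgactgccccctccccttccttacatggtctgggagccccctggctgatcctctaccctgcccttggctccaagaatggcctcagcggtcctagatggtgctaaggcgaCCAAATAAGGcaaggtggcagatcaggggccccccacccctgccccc
Acta1: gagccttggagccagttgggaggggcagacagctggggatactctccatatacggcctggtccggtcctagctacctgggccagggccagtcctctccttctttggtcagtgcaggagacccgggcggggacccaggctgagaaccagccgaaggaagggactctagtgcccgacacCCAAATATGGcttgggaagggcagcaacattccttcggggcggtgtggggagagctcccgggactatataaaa
Of 27025 windows of this length, 66.0% held an E-box and 1.4% a CArG box. Among genes that added up lower, 67.5% of 234 windows held an E-box and 2.56% a CArG box, beside 57.2% and 1.23% of the 9201 windows of tested genes. The CRE, the palindrome of the CREB family made of TGAC directly followed by GTCA, was in 1.62% of all windows and in 2.75% of those of tested genes. It was in 2.56% of those that added up lower, 2.52% of those that added up higher, 4.31% of those that cancelled after a siRNA rise and 2.41% of those that cancelled after a siRNA fall. These matches describe letters in a window and are not shown to be bound sites, and matches of different motifs may overlap.

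Among regulators of the muscle programme, 21 of 24 listed genes were tested, 13 fell and 4 rose, and 5 of the falls added up. Over all tested genes 24.2% fell and 19.7% rose, so the rises were near that share. Hfe2, a BMP co-receptor of muscle (hemojuvelin), went from 25.1, 24.4 and 20.2 CPM to 1.36, 0.78 and 1.52 CPM, 19.0-fold lower (−4.25, SE 0.19, adjusted p = 1.66e-10 in edgeR). Mymk, the membrane protein myomaker that fuses myoblasts, fell 15.7-fold from 12.2 to 16.2 CPM down to 0.88 to 1.03 CPM (−3.97, SE 0.16, edgeR adjusted p = 4.7e-11), counted on 28.5% of its exonic bases. Single falls were 7.98-fold and 3.0-fold for Hfe2 and 5.09-fold and 3.5-fold for Mymk. The upstream factor Myod1, chosen after its values were seen, did not follow them: its net change of 0.09 (SE 0.08) was not called (edgeR adjusted p = 0.397), at 232 ± 19.6 CPM in the controls and 246 ± 17.4 CPM in the doubly treated cells (SD, n = 3). Id2 and Id3, inhibitors of MyoD-family factors and also chosen after their values were seen, rose by 0.75 and 0.66 on the log2 scale, close to their rapamycin changes of 0.90 and 0.63.

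Of 55 listed genes of the sarcomere, the triad and the motor endplate, 31 passed the count filter. Of these, 25 fell, 3 rose and 3 were not called, where 24.2% of all tested genes fell. The net median was −2.15, beside −1.53 with the siRNA and −1.10 with rapamycin, and 16 of the falls added up. Myom2, which links thick filaments at the M-band, stood at 161, 166 and 156 CPM in the controls and 18.3, 16.3 and 19.7 CPM with both, an 8.91-fold fall (−3.15, SE 0.09, edgeR adjusted p = 1.43e-12). Klhl41, which stabilises thin filaments, fell 8.75-fold, Trdn, the triadin of the calcium-release complex, 6.99-fold, and Atp2a1, the calcium pump of the sarcoplasmic reticulum, 6.77-fold. Chrng, the fetal gamma subunit of the acetylcholine receptor, fell 5.45-fold from 51.6 to 59.7 CPM down to 9.31 to 11.2 CPM, with single falls of 2.81-fold and 3.02-fold. Its partner subunits Chrna1 and Chrnb1, named after their values were seen, fell by only 0.19 and 0.18 on the log2 scale, after rapamycin falls of 0.59 and 0.63 and siRNA changes of 0.12 and 0.01 that were not called. Des, the intermediate filament desmin and likewise named after its values were seen, was at 1550 ± 113 CPM in the controls and 1541 ± 34.6 CPM with both (SD, n = 3), with a net change of −0.01 (SE 0.07) that was not called. The 3 rises, named after their values were seen, were Nebl, a nebulin relative, and the tropomyosins Tpm1 and Tpm2, of which 30.5%, 39.4% and 8.69% of exonic bases were countable. Of the 31 tested members, 11 had a countable share below 50%.

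For the actins the net fall was smaller than the single falls combined. The interaction was 1.27 for Actc1 (SE 0.19, edgeR adjusted p = 0.00294), 1.13 for Acta1 (SE 0.16, edgeR adjusted p = 0.00251) and 0.50 for Myom2 (SE 0.12, edgeR adjusted p = 0.0493). Tmod1, which caps thin filaments, had single falls of 2.54-fold and 3.07-fold and a net fall of 3.79-fold, with an interaction of 1.04 (SE 0.16, edgeR adjusted p = 0.00371). In the list, 9 of 31 genes had a called positive interaction and none a negative one. That compares with 0.611% positive and 0.589% negative calls among all tested genes. Myog, Hfe2 and Mymk had interactions of 0.28, 0.33 and 0.18 that were not called (edgeR adjusted p of 0.637, 0.646 and 0.778).

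Ribosomal protein genes added up at a smaller scale. Of 84 listed ribosomal proteins and elongation factors, 72 were tested, 53 rose and none fell, and 38 added up higher. Over all tested genes 19.7% rose, 24.2% fell and 2.55% added up higher. The list's medians were 0.24, 0.34 and 0.69 under the siRNA, rapamycin and both. Rpl4, of the large subunit, went from 2325, 2244 and 2293 CPM to 4127, 4467 and 4267 CPM, a 1.87-fold rise (0.91, SE 0.04, edgeR adjusted p = 1.71e-10), after single changes of 0.35 and 0.53. Eef1a1, which brings aminoacyl-tRNA to the ribosome, rose 1.77-fold and Eef2, which drives translocation, 2.32-fold, although the siRNA change of Eef2 (0.12) was not called. CPM are shares of the counted reads, so these rises are relative to the other transcripts, and 17 of the 72 tested members had a countable share below 50%.

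Ribosome assembly factors showed the opposite arrangement. Of 56 listed, 54 were tested; the siRNA alone raised 45 of them, rapamycin alone lowered 40, and both together raised 18 and lowered 13. All tested genes rose in 19.7% and fell in 24.2% of cases, so the net falls were near that share. Single effects were opposite for 37 members, of which 18 cancelled after a siRNA rise and 1 after a siRNA fall, 9 kept a net rise and 9 a net fall. The list's medians were 0.41 under the siRNA, −0.31 under rapamycin and −0.01 under both. Utp14a, a subunit of the small-subunit processome, rose with each treatment instead. It stood at 44.9, 45.5 and 48.3 CPM in the controls and 76.2, 77.9 and 76.2 CPM with both, a 1.66-fold rise after single rises of 1.3-fold and 1.29-fold. Nob1, the nuclease that finishes 18S ribosomal RNA, rose 1.62-fold, and Rrp1b, a nucleolar protein, fell 1.36-fold. The rises numbered 10 in place of 18 without replicate 2 of the doubly treated libraries.

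The clearest cancellation was in Sprr1a, a small proline-rich protein of the cornified envelope that is induced in injured tissue. The siRNA alone raised it from 6.1, 5.45 and 6.19 CPM to 25.6, 25.3 and 28.3 CPM, and rapamycin alone lowered it to 0.94, 1.26 and 1.16 CPM. With both it stood at 5.82, 6.79 and 5.81 CPM, within and just beyond the control range. The single effects were 2.16 (SE 0.09) and −2.39 (SE 0.13) on the log2 scale, and the net of 0.06 (SE 0.10) had a 95% interval from −0.16 to 0.27 (edgeR adjusted p = 0.694). Its 250 bases before the RefSeq start, chr3:92485882-92486131 on the minus strand, are shown for 2 matches to the AP-1 motif (TGANTCA, in capitals), which begin 146 and 116 bases before the start.
Sprr1a: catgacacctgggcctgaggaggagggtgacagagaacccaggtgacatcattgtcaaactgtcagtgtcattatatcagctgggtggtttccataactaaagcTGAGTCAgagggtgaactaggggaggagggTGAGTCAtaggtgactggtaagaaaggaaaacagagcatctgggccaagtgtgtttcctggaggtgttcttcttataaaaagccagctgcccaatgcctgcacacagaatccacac
An AP-1 match was present in 6.87% of all 27025 windows and in 4.56% of the windows of tested genes. It was in 5.58% of 394 windows of genes that cancelled after a siRNA rise and 4.82% of those that cancelled after a siRNA fall. The share was 4.62% for genes that added up higher and highest, at 7.26%, for those that added up lower. The AP-1 subunit Fosl1 had the same opposite pattern without full cancellation: 42.6, 41.9 and 44.7 CPM in the controls, 93.4 to 103 CPM with the siRNA, 15.7 to 19.3 CPM with rapamycin and 30.5, 37.5 and 31.8 CPM with both. Its net fall was 1.3-fold (−0.37, SE 0.08, edgeR adjusted p = 0.00144).

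Cell-cycle and metabolic genes were among the others that cancelled after a siRNA rise. Ccnd2, the G1 regulator cyclin D2, stood at 39.5, 38.9 and 41.5 CPM in the controls, 93.7 to 105 CPM with the siRNA, 20.6 to 21.8 CPM with rapamycin and 44.1, 47.1 and 40.6 CPM with both. The net of 0.14 (SE 0.06) was not called (edgeR adjusted p = 0.0752), but it was called under RLE scaling, with DESeq2, with protein-coding genes only and without doubly treated replicate 3, at 0.15 to 0.20. Hk2, the hexokinase that commits glucose to glycolysis, stood at 28.9, 35.7 and 32.9 CPM in the controls and 32.6, 33.5 and 29.5 CPM with both, between 52.4 to 61.8 CPM with the siRNA and 16.8 to 17.7 CPM with rapamycin (countable share 52.1%). Relt, a receptor of the TNF receptor family, doubled with the siRNA (2.03-fold) and halved with rapamycin (2.09-fold lower), and its net of −0.15 had an interval from −0.35 to 0.04. Htr1b, a serotonin receptor, and Aen, a p53-induced exonuclease (countable share 58.8%), had nets of −0.24 and 0.10 that were not called. For Htr1b the interval ran from −0.49 to 0.02. Its doubly treated libraries, at 5.455 to 5.71 CPM, all lay below the controls, at 6.395 to 6.874 CPM.

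Wnt4, a secreted Wnt ligand, was the leading gene that cancelled in the other direction. It stood at 18.0, 16.3 and 17.7 CPM in the controls, 7.93, 6.36 and 8.27 CPM with the siRNA, 35.4, 44.1 and 39.3 CPM with rapamycin and 18.8, 19.4 and 17.1 CPM with both. The single effects of −1.20 (SE 0.10) and 1.19 (SE 0.09) left a net of 0.09 with an interval from −0.12 to 0.29 (edgeR adjusted p = 0.49). Six5, a homeobox transcription factor, went to 13.0 to 14.1 CPM and 41.4 to 47.5 CPM with the single treatments and stood at 24.1 to 26.3 CPM in the controls and 23.5 to 25.8 CPM with both. Trnp1, a nuclear protein studied in neural progenitors, had single effects of −0.95 and 0.88 and a net of −0.04 with an interval from −0.34 to 0.26. Dbp, a circadian PAR-bZIP factor counted on 31.0% of its bases, had −1.07 and 0.79 and a net of 0.05. Il3ra, the interleukin-3 receptor alpha chain, had a net of 0.19 that was called in 6 of the alternatives tried. Ypel4, a small zinc-binding protein, had a net of −0.18 that was called, at −0.30, without doubly treated replicate 3.

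In other genes 1 perturbation outweighed the other. Nefl, the neurofilament light chain, rose 5.55-fold with the siRNA and fell 2.33-fold with rapamycin, and with both it stood at 136, 178 and 138 CPM against 48.6, 57.9 and 53.6 CPM in the controls (2.83-fold, edgeR adjusted p = 3.57e-09). Its neighbour Nefm had a net rise of 2.01-fold, but its annotation spans Nefl on the other strand and the strand setting of the counting is not given in the sources used here, so reads of the 2 genes may not be separate. Stmn2, a microtubule regulator of growing neurites, added up instead: 167, 172 and 171 CPM in the controls and 640, 708 and 643 CPM with both, a 3.91-fold rise (1.97, SE 0.05, edgeR adjusted p = 8.36e-13), while Tubb3, a beta-tubulin of neurons (countable share 58.5%), fell 1.32-fold. These 4 genes are on the list of neural markers, whose members Rbfox3, Snap25 and Syt1 were at 0. Stc1, the secreted glycoprotein stanniocalcin 1, kept most of its siRNA rise, at 24.8, 15.4 and 29.2 CPM with both against 5.09 to 5.77 CPM in the controls (4.34-fold). Areg, the EGF receptor ligand amphiregulin, kept a 2.04-fold rise of the 3.75-fold seen with the siRNA.

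Genes of the EGF receptor and immediate-early response otherwise tended to net rises: of 34 listed, 30 were tested, 17 rose and 3 fell, beside 19.7% and 24.2% of all tested genes. Hbegf, a further EGF receptor ligand, rose 2.43-fold from 32.4 to 34.9 CPM up to 77.6 to 89.95 CPM, almost all of it with the siRNA (1.09, against 0.17 with rapamycin). Dusp4 and Dusp6, phosphatases that switch off MAP kinases, rose 2.04-fold and 1.73-fold. Fos, the immediate-early factor, differed: the siRNA lowered it 1.57-fold and rapamycin 1.33-fold, yet it stood at 23.9, 27.7 and 26.5 CPM with both and 25.04, 28.0 and 27.2 CPM in the controls. The net was −0.04 (SE 0.09, edgeR adjusted p = 0.748) and the interaction 1.03 (SE 0.13, edgeR adjusted p = 0.00105).

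The siRNA's fall prevailed for Galnt15, a glycosyltransferase counted on 43.7% of its bases, which stood at 11.1 to 12.9 CPM in the controls, 20.5 to 23.3 CPM with rapamycin and 6.06 to 6.23 CPM with both (1.96-fold lower). Csf2rb, the common beta chain of the interleukin-3 and GM-CSF receptors, fell 1.71-fold, Omd, the proteoglycan osteomodulin, 1.69-fold and Col8a2, a chain of collagen VIII, 1.28-fold. In the other direction rapamycin's rise prevailed for Hdac11, a histone deacetylase (1.63-fold), Mustn1, a musculoskeletal protein (1.44-fold), Calcoco1, a selective autophagy receptor counted on 47.0% of its bases (1.36-fold), and Nfatc4, a calcineurin-regulated factor counted on 24.8% (1.26-fold). The Nfatc4 call was lost with no count filter and without doubly treated replicate 1 or control replicate 3 (edgeR adjusted p of 0.0554 to 0.0637). Krt14, the basal keratin, fell with the siRNA (−0.74) and rose with rapamycin (1.77) to a net 1.98-fold rise.

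Rapamycin's fall prevailed in the nutrient and proliferation genes. Tfrc, the transferrin receptor that brings iron into cells, stood at 53.9, 66.0 and 64.2 CPM in the controls, 97.5 to 137 CPM with the siRNA, 11.4 to 12.2 CPM with rapamycin and 25.1, 22.1 and 22.8 CPM with both, a net 2.63-fold fall (−1.39, SE 0.12, adjusted p = 8.54e-08 in edgeR). Mfsd2a, which carries lysophosphatidylcholine lipids into cells, stood at 16.0 to 17.5 CPM in the controls and 4.44 to 5.8 CPM with both, 3.25-fold lower, after 1.86-fold up and 7.68-fold down. Of 47 DNA replication genes, 38 were tested: the siRNA raised 25, rapamycin lowered 36, and both lowered 35 and raised none, with medians of 0.32, −1.25 and −1.02. Over all tested genes 24.2% fell and 19.7% rose with both. Rrm2, the ribonucleotide reductase subunit that limits nucleotide supply, went from 459, 460.0 and 481 CPM to 191, 221 and 186 CPM (2.34-fold lower). Of 42 mitosis genes, 38 were tested and all 38 fell, 21 of them against a siRNA rise, with medians of 0.34, −1.51 and −1.34. Ccnb2, a cyclin of mitotic entry, fell 2.51-fold and Ube2c, the ubiquitin-conjugating enzyme of the anaphase-promoting complex, 2.15-fold.

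ATF4 target genes, which supply amino acids and one-carbon units, followed the same order. Of 35 listed, 27 were tested: the siRNA raised 18, rapamycin lowered 21, and both lowered 19 and raised 2. Over all tested genes 24.2% fell and 19.7% rose with both. The list's net median was −0.49. Slc7a5, the leucine transporter subunit, went from 160, 147 and 152 CPM to 54.6, 60.9 and 59.5 CPM (2.62-fold lower), and Mthfd2, the mitochondrial folate enzyme, fell 2.47-fold. A negative interaction was called for 5 of the 27, beside 0.589% of all tested genes. Among the 5 were Slc7a5 (interaction −0.44, edgeR adjusted p = 0.00588), Trib3, a pseudokinase (−0.94, edgeR adjusted p = 0.00296), and Aldh1l2, a mitochondrial folate enzyme counted on 36.4% of its bases (−0.94, edgeR adjusted p = 0.00751). Trib3 stood at 6.54, 5.92 and 7.2 CPM in the controls, 10.4 to 11.1 CPM with the siRNA, 4.52 to 4.81 CPM with rapamycin and 4.01, 4.24 and 3.71 CPM with both. The lowest of its 4 groups was thus the doubly treated one, although the siRNA alone had raised it.

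Most genes of cholesterol synthesis and glycolysis ended lower, where 24.2% of all tested genes fell. All 25 cholesterol synthesis genes were tested: 22 fell with both, 22 fell with rapamycin alone, and the siRNA alone raised 5 and lowered 6, giving a net median of −0.90. Lss, lanosterol synthase, fell 2.48-fold from 101 to 111 CPM down to 41.1 to 44.1 CPM, and Hmgcs1, an early enzyme of the pathway, fell 2.16-fold. Of 19 tested glycolysis genes 14 fell, among them Pfkl, the liver-type phosphofructokinase, by 2.2-fold. Slc16a1, the lactate transporter on that list, had small single falls (−0.26 and −0.19) and a net 2.07-fold fall, from 251, 267 and 252 CPM to 125, 123 and 124 CPM, with an interaction of −0.60 (SE 0.07, edgeR adjusted p = 0.00101). Of 15 tested hypoxia genes, 9 fell and 4 of these added up, led by Pdk1, the kinase that inhibits pyruvate dehydrogenase, at 129, 129 and 128 CPM in the controls and 46.8, 48.3 and 45.7 CPM with both (2.74-fold lower).

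FOXO targets, which act in catabolism and are kept low by growth-factor signalling, split evenly. Of 19 tested, 8 rose and 8 fell with both, after 12 falls with the siRNA and 11 rises with rapamycin, and the net median was 0.02. Fbxo32, the muscle ubiquitin ligase atrogin-1, was lowered by the siRNA (−0.31) and raised by rapamycin (0.87), but reached 286, 301 and 286 CPM with both against 122, 130 and 142 CPM in the controls. That 2.22-fold rise exceeded rapamycin's own, with an interaction of 0.59 (SE 0.07, edgeR adjusted p = 0.00105). Sesn3, a sestrin that restrains mTOR complex 1, fell with each treatment and by 2.13-fold with both. Among 32 tested genes of the mTOR pathway 5 rose and 7 fell, at or below the 19.7% and 24.2% of all tested genes, and the falls numbered 4 under RLE scaling, with DESeq2 and without doubly treated replicate 2 or rapamycin-alone replicate 3. Castor1, an arginine sensor of the pathway, added up from 8.76, 8.28 and 8.19 CPM to 19.0, 21.0 and 22.1 CPM (2.46-fold).

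The remaining lists are read against the 19.7% of all tested genes that rose and the 24.2% that fell. Of 15 tested cytosolic aminoacyl-tRNA synthetases 9 fell and 1 rose, and of 18 ER chaperones 16 fell and none rose. Fatty acid synthesis gave 12 falls and 1 rise among 19 tested genes, while fatty acid oxidation, with 6 falls and 4 rises among 21, stayed near those shares. The TCA cycle gave 9 falls and 7 rises among 28 (4 rises without doubly treated replicate 2), and oxidative phosphorylation 16 falls and 5 rises among 52 (9 falls without doubly treated replicate 1 and 10 without replicate 3). NRF2 targets fell in 17 and rose in 2 of 28 cases, iron genes fell in 8 and rose in 1 of 14, and lysosome and autophagy genes fell in 9 of 40, near the share of all genes, and rose in 12. Circadian genes gave 8 falls and 3 rises among 17, and the list of Crebl2 and CREB genes 2 falls and 4 rises among 14. Crebl2 itself, the target of the siRNA, was among these 2 falls.

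Interferon genes leaned lower, p53 targets leaned higher, and NF-kB targets went both ways. Over all tested genes 24.2% fell and 19.7% rose with both, and 0.611% had a called positive interaction. Among 25 tested interferon genes 11 fell and 1 rose, close to the 12 falls and 1 rise with the siRNA alone, and Ifi27l2a, an interferon-induced protein, fell most, by 2.38 on the log2 scale. NF-kB targets and chemokines gave 8 falls and 6 rises among 18, with the chemokines Cxcl12 and Ccl7 (countable share of Cxcl12 56.3%) at −1.32 and −1.52 and Ptgs2, the inducible cyclooxygenase, higher by 1.01. Among 17 tested p53 targets 10 rose and 3 fell with both, whereas rapamycin alone raised 3 and lowered 10, and 5 had a called positive interaction, among them Plk2, a polo-like kinase (0.35, edgeR adjusted p = 0.00588). Of the adipocyte markers 1 of 3 tested rose, and of the osteochondral markers 3 of 5 rose and 1 fell. The adipocyte rise was Fabp4, at a mean of only 0.23 CPM in the controls and 1.07 CPM with both. Alpl, among the osteochondral rises, was lower still, at 0.12 and 0.30 CPM. The rise of Alpl, an alkaline phosphatase (1.35, edgeR adjusted p = 0.0263), was lost with DESeq2 and without doubly treated replicate 1 or control replicate 2 or 3, at adjusted p of 0.0626 to 0.178.

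**Figure D3:**
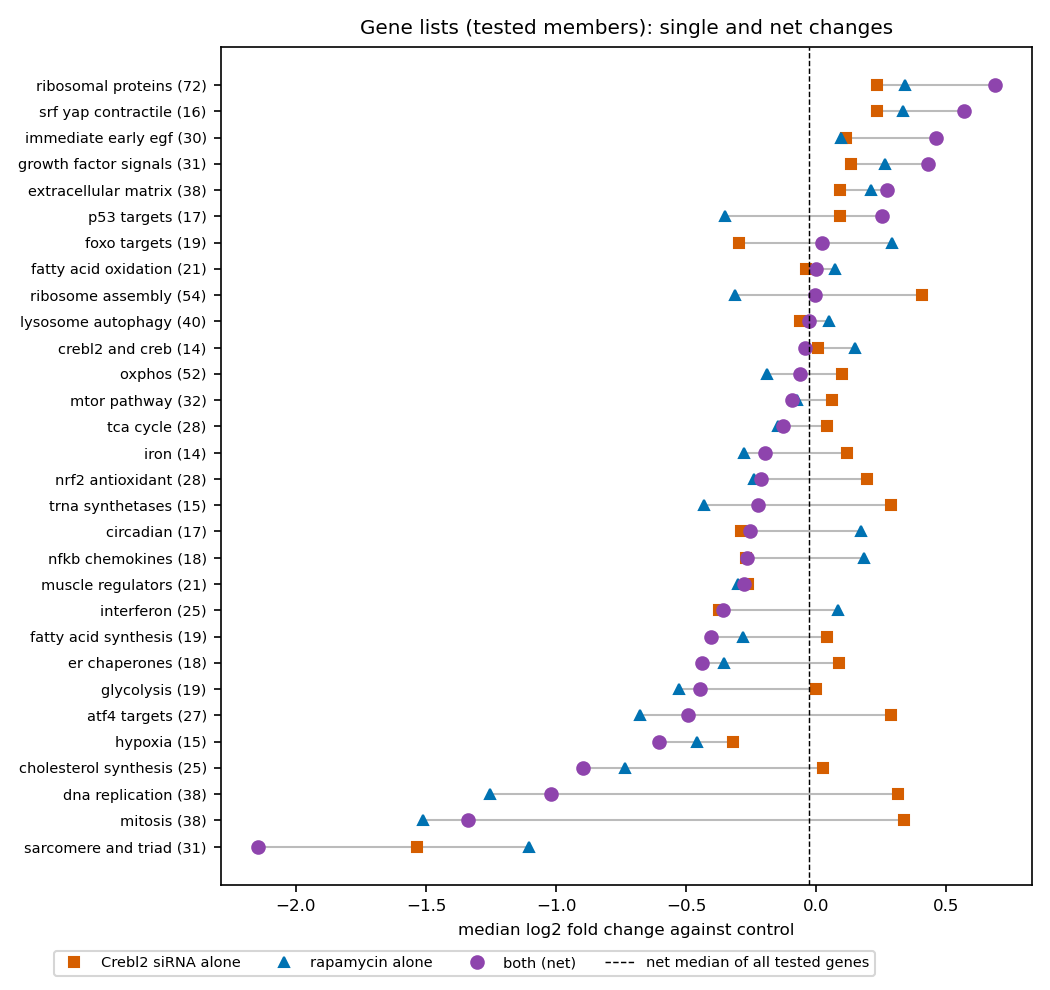
Median log2 fold change against the control (x axis) over the tested members of 30 gene lists (y axis, number tested in parentheses) under the siRNA alone, rapamycin alone and both. The net median lies beyond both single medians for ribosomal proteins (0.69) and sarcomere genes (−2.15), between opposite single medians for ribosome assembly (−0.01), and close to rapamycin for DNA replication (−1.02) and mitosis (−1.34).

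Departures from additivity were called for 159 of 13247 genes (1.2%), 81 positive and 78 negative, with a median SE of the interaction of 0.155 on the log2 scale. At an unadjusted p below 0.05 there were 1892. Interactions were called for 46 of the 785 genes with single effects in one direction (5.86%) and for 50 of the 2165 with opposite ones (2.31%). A called interaction was found for 3 of the 338 genes that added up higher and 13 of the 317 that added up lower, and for 2 in each direction of the cancelled genes. The rules of these classes use the net change, so these counts are a description only. Departures several times this SE could go uncalled: the interaction of Pappa was 0.60 (SE 0.16, edgeR adjusted p = 0.0931). An uncalled interaction therefore does not show that a gene is additive.

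**Figure D4:**
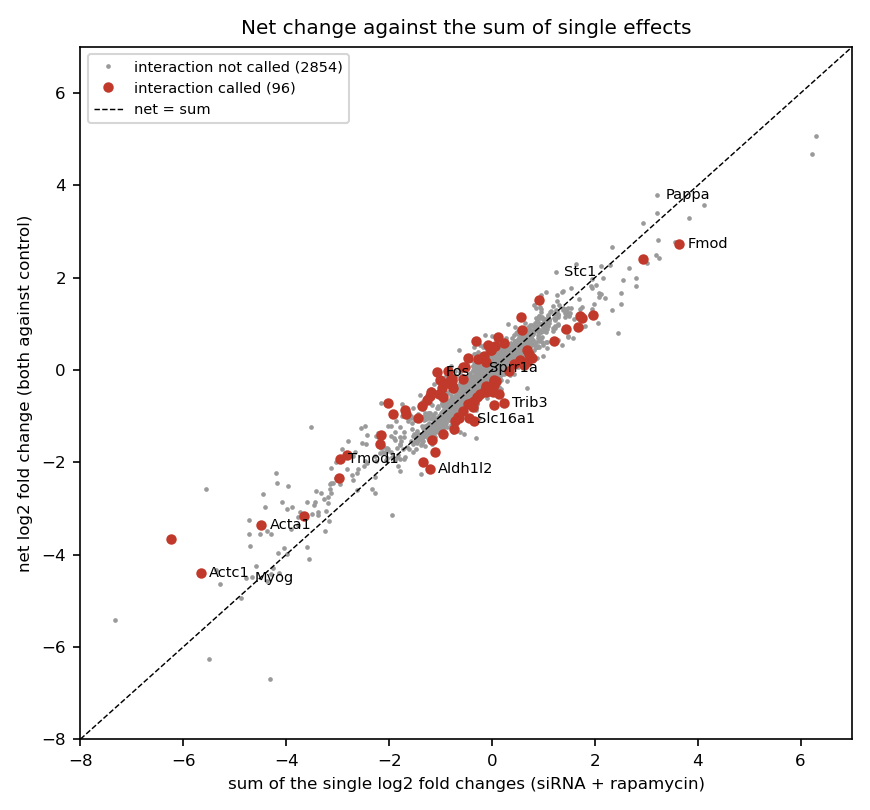
Net log2 fold change of the doubly treated cells (y axis) against the sum of both single log2 fold changes (x axis) for the 785 genes with called single effects in one direction and the 2165 with opposite ones. Points on the dashed line are additive, and the coloured points are the 46 and 50 genes of these with a called interaction, such as Actc1, Acta1 and Tmod1 above the line at the lower left, Fmod below it at the upper right, and Trib3, Slc16a1 and Aldh1l2 below it near the middle.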

How the data were processed

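Total RNA of 12 C2C12 samples had been made into stranded libraries, per the labels' protocols. The submitters' processing notes name Trim Galore, TopHat and HTSeq and the builds mm9 and GRCm38, without versions or roles. The authors deposited raw read counts per transcript. Here, 58264 of 58611 listed transcripts (99.41%) were matched to GENCODE M21 and summed to 38481 genes. The 347 unmatched ones held 0.038% of reads. The counting's strand setting is not given in the sources used here.

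Groups came from sample titles. Genes passing edgeR's filterByExpr (minimum count 10) were fitted with edgeR 4.0.16 (quasi-likelihood, TMM scaling, R 4.3.3) over all 12 libraries with 1 mean per group, and p-values were adjusted by Benjamini-Hochberg over 13247 genes at 0.05. The test was checked on simulated counts. A fitted log2 fold change is net (both treatments against control), single or an interaction. Depth was 33404087 to 42891015 counts a library, and the common biological variation 6.9%.

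Named genes were Crebl2 and, among coding genes averaging 5 CPM or more, the largest net changes, the leading genes of each class of combined effect, the largest interactions, and the 3 members of each list with the smallest net p. Members and lists were chosen with earlier results of these data known. Alternatives were RLE scaling, DESeq2 1.42.0, other count filters, the replicate number as a block, protein-coding or well-countable genes only, the 6 compared libraries only, stricter thresholds and leaving out each library. Promoter windows are RefSeq's, with 1 chromosome not used here. The gene just inside the bound of the cancelled class is not reported here.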

Additional observations from a re-analysis of the deposited data

Results flagged for a closer look

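For 22 of the 134 named genes the siRNA effect differed between ethanol and rapamycin by the test of the interaction in edgeR (adjusted p of 0.00101 to 0.0493). Over all tested genes 1.2% had a called interaction. Some of the 22 were named because their interactions were among the largest, so this count is not a result about the named genes. The values are the net log2 fold change minus both single ones. Negative interactions were found for Aldh1l2 (−0.94), Trib3 (−0.94), Fmod (−0.91), Tent5c (−0.8), Slc16a1 (−0.6), Smoc2 (−0.52), Slc7a5 (−0.44), Col6a1 (−0.4) and Acat2 (−0.35, countable share 37.5%). Positive ones were found for Cnn2 (0.26), Plk2 (0.35), Itga7 (0.39), Cdh15 (0.41), Calcoco1 (0.45), Mustn1 (0.47), Myom2 (0.5), Hdac11 (0.58), Fbxo32 (0.59), Fos (1.03), Tmod1 (1.04), Acta1 (1.13) and Actc1 (1.27). The siRNA effect was called in opposite directions with ethanol and with rapamycin for Fos (−0.65 in ethanol, 0.37 in rapamycin), Fbxo32 (−0.31 and 0.28), Aldh1l2 (0.54 and −0.40) and Acat2 (0.17 and −0.17). For Trib3 the values were 0.70, which was called, and −0.24, which was not (edgeR adjusted p = 0.0915). For Actc1 it stayed a fall in both, −3.53 and −2.26, as for Acta1, −3.00 and −1.87.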

How the results depend on the processing

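No gene with a called net change was called in the opposite direction under any alternative. Net rises and falls, 2606 and 3203, ranged from 2283 to 2678 and from 2686 to 3291 when 1 library was left out. The genes that added up also varied (238 to 356 higher, 255 to 344 lower), as did those that cancelled (454 to 576 after a siRNA rise, 264 to 342 after a siRNA fall), and the calls of each treatment alone (4286 to 5032 for the siRNA, 4662 to 5636 for rapamycin). At an adjusted p of 0.01, 189 genes added up higher and 192 lower, and 61 interactions were called. Interactions, 159 in all, numbered 391 with DESeq2, 415 without a count filter and 85 to 172 when 1 library was left out (102 without siRNA-alone replicate 1, 85 without doubly treated replicate 3, 94 without control replicate 2, 88 without rapamycin-alone replicate 3). With the stricter bound on the interval, 435 and 232 genes cancelled. Same-numbered libraries did not visibly deviate together (correlations −0.427 to 0.196, against −0.424 to 0.518 for other numbers). With correlations this scattered, the check cannot exclude pairing by number. With the replicate number as a block, 2430 genes rose, 3004 fell and 91 interactions were called. For the named genes only the net call was checked: 2629 checks kept it, 11 gained one (Ccnd2, Il3ra, Ypel4) and 7 lost one (Alpl, Nfatc4). The single effects and interactions of named genes were not rechecked gene by gene.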
